A study of Mus musculus with 10 samples.

Results

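The genes described here encode 10 proteins of the neuronal cytoskeleton: the microtubule-associated proteins Map2, Mapt, Map1a and Map1b, the tubulins Tuba1a and Tubb3, and the neurofilament proteins Nefl, Nefm, Nefh and Ina. They were chosen by name, 10 of the 54838 gene identifiers counted, and all 10 passed the filter on low counts. The libraries come from translating ribosome affinity purification (TRAP), in which ribosomes carrying an EGFP-tagged L10a subunit are precipitated with the mRNA they are bound to. All libraries, dorsal and ventral, were from male Drd2-Cre;Eef1a1LSL.eGFPL10a/+ mice on C57BL/6, about 10 weeks old, in which Cre recombinase from the Drd2 gene promoter switches the tagged ribosomal protein on. The groups differ in the stretch of hippocampus precipitated, with 5 libraries from dorsal and 5 from ventral tissue, and each library pools the tissue of 5 mice, which makes the pool the replicate. By the methods, hippocampi of 1 set of mice were divided into both pieces, so dorsal and ventral pools drew on the same mice, but which pools share animals is not given in the sources used here. From the ventral pieces the ventral subiculum had been trimmed away. Drd2-Cre marks the mossy cells of the dentate hilus together with other Drd2-expressing hippocampal neurons, GABAergic interneurons among them, and the populations are therefore enriched for mossy cells rather than pure.

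Microtubules are hollow polymers of alpha- and beta-tubulin that give axons and dendrites their shape and carry cargo along them. Microtubule-associated proteins bind their surface and set their stability and spacing: Map2 is found mainly in dendrites and cell bodies, tau (Mapt) mainly in axons, and Map1a and Map1b are large proteins cleaved into a heavy and a light chain. Neurofilaments are the intermediate filaments of neurons, assembled from a light (Nefl), a medium (Nefm) and a heavy (Nefh) chain with alpha-internexin (Ina), and they are known for setting the calibre of axons. Mossy cells are excitatory neurons with long axons that run along and across the hippocampus. Map2 is also the gene to which the study normalized its quantitative PCR.

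Promoters are shown for Map2 and Tubb3, the members called in opposite directions below that have an entry in the RefSeq promoter set of GRCm38.p6. Each holds 250 bases before and 50 after the RefSeq start, 5′ to 3′, at chr1:66175079-66175378 on the plus strand for Map2 and at chr8:123411303-123411602 on the plus strand for Tubb3. Capitals mark exact matches on either strand to any of 3 motifs. These are the letters GGGCGG, known as the GC box, then those of the TATA box, here TATAA, and finally those of the CAAT box, here CCAAT. In Tubb3 a TATA box match on each strand overlaps the other.
Map2: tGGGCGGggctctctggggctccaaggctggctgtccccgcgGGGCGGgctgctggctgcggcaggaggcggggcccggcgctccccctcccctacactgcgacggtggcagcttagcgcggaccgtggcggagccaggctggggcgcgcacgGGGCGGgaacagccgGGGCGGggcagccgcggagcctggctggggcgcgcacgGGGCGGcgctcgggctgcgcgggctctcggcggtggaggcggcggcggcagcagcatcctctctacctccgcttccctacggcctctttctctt
Tubb3: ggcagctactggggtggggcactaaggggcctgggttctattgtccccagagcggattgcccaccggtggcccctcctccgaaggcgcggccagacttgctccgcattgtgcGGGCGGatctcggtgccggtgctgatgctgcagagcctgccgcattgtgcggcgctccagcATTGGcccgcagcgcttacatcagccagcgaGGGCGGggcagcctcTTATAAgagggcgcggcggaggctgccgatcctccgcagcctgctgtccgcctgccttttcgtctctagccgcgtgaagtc
The Map2 window had 77.7% G and C and 5 GC boxes, with no match to the other motifs. That of Tubb3 had 67.3% G and C and matches to all 3 motifs. The 6 members with an entry (Map2, Map1a, Map1b, Tuba1a, Tubb3 and Ina) held a GC box in 6 windows, a TATA match in 3 and a CCAAT match in 3, while 35.7%, 24.9% and 37.4% of the 32851 windows of the set held them. Such matches describe the letters in the window and not the binding of a factor.

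Dorsal libraries held 11138676 to 16779821 and ventral libraries 11618625 to 20594364 counts on genes, and 3 counts, the level a count of 0 still allows, came to 0.146 to 0.269 CPM (counts per 1000000 counts on genes). Gene levels in CPM given below also carry the TMM scaling factor of each library. This floor covers counting error alone: the cDNA was amplified and carried no molecular identifiers. The share of read pairs outside annotated genes was 21.8 to 33.9% in dorsal and 11.6 to 19.3% in ventral libraries, and mRNA of the mitochondrial genome took 0.269 to 0.349% and 0.0437 to 0.121% of the counts (2-sided exact permutation p = 0.00794 for each, the smallest that 5 against 5 libraries allow). Markers of the labelled cell type were present, with Drd2 at 28.1 ± 3.96 CPM in the dorsal group and 20.7 ± 4.36 CPM in the ventral group (SD, n = 5 in each), and so were all 10 markers of interneurons. Summed over 8 markers each, oligodendrocyte mRNA was 2455 to 2922 CPM in the dorsal and 911 to 1748 CPM in the ventral group, and astrocyte mRNA 1979.6 to 2249 CPM and 857 to 1457 CPM. Of these, 4 oligodendrocyte and 4 astrocyte markers were called dorsal-enriched and 1 astrocyte marker ventral-enriched, and no marker of either list was at 0 in a whole group. The sum over interneuron markers was 3428 to 4622 CPM in the dorsal and 4129.9 to 5391 CPM in the ventral group. Of these 10 markers 4 were called, all ventral-enriched. The rule for calls, given below, picked 15.7% of all genes tested as dorsal-enriched and 9.85% as ventral-enriched. The part of these cell types, and of the read pairs outside genes, in the differences given next was not tested. In precipitates of tissue, fewer cells of a type and less RNA per cell cannot be told apart.

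Levels of different genes were compared per kilobase of exonic length, on the scale of CPM per kb. Tuba1a was the most abundant member, at 2426 ± 325 CPM per kb in the dorsal and 3379 ± 444 CPM per kb in the ventral group (SD, n = 5 in each), a value that its shared sequence makes uncertain. Nefl came next at 243 ± 10.4 against 389 ± 119 CPM per kb. Nefh was the least abundant, at 7.59 CPM per kb in dorsal and 9.28 CPM per kb in ventral libraries. Between these ends the order differed between the regions. In dorsal libraries it ran Map1b, Tubb3, Map2, Mapt, Ina, Nefm and Map1a, from 155 down to 35.6 CPM per kb, and the ranges of Tubb3 and Map2, of Mapt and Ina, of Ina and Nefm and of Nefm and Map1a overlapped. In ventral libraries it ran Tubb3, Map1b, Ina, Nefm, Mapt, Map2 and Map1a, from 159.6 down to 26.5 CPM per kb, and Map1b and Ina as well as Map2 and Map1a did not overlap while the other neighbours did. Map2 thus ranked 5 in dorsal and 8 in ventral libraries among the 10. These places depend on the length used: its exons add up to 16449 bp over 24 annotated transcripts, of which the longest is 6258 bp, and per kb of longest transcript Map2 ranked 4 and 5.

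The comparison of dorsal with ventral libraries asked which of these mRNAs differ along the long axis of the hippocampus. Map2 was higher in dorsal libraries, by 1.53-fold, while Tubb3 and Nefl were higher in ventral libraries, by 1.72-fold and 1.6-fold. Map1a, Tuba1a, Nefm and Ina differed by less than the fold threshold, and no difference was detected for Mapt, Map1b and Nefh. Enrichment was called where edgeR's quasi-likelihood test gave an adjusted p below 0.05 and the group means, 1 CPM added to each, differed by more than 0.58 on the log2 scale, and fold changes are log2 values of dorsal over ventral with the standard error (SE). Pairs of means with their SD (n = 5 each) put the dorsal group first. By this rule 1 member was called dorsal-enriched and 2 ventral-enriched, where 15.7% and 9.85% of the 16806 genes tested were, and 3 of the 10 were called in either direction, where 25.5% of genes were. On the adjusted p alone 2 members were higher and 5 lower in dorsal libraries, against 19.0% and 14.6% of genes. All dorsal libraries lay above all ventral ones for 1 member and below them for 2, against 9.81% and 8.36% of genes. The median log2 fold change of the members was -0.33 and that of all genes tested -0.0044. With offsets for the GC content and length of each gene the members' median became 0.026, with 2 called dorsal-enriched and 1 ventral-enriched.

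**Figure D1:**
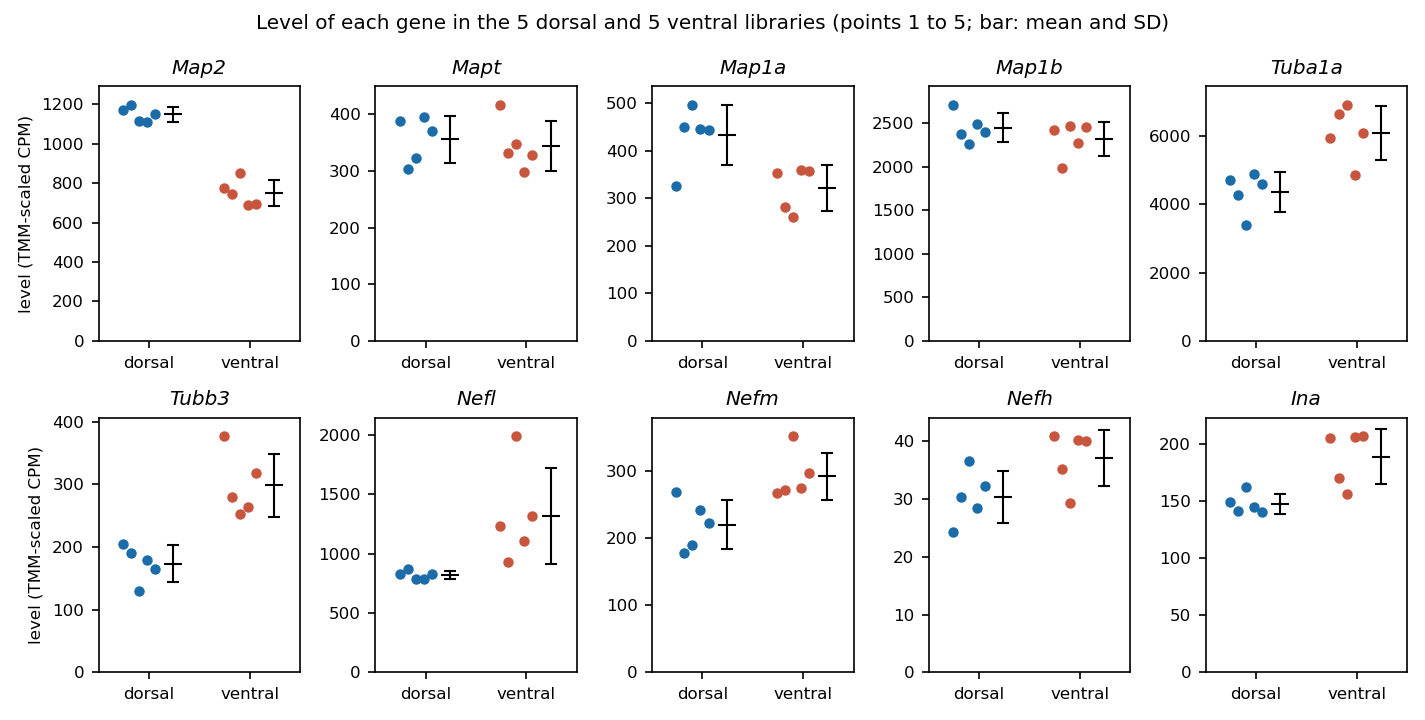
Level of each of the 10 genes (TMM-scaled CPM, vertical axis starting at 0) in the 5 dorsal (blue) and 5 ventral (red) libraries, with the mean and SD of each group in black. The groups separate for Map2, Tubb3 and Nefl, and ventral replicate 3 stands above the other ventral libraries for Nefl at 1985 CPM.

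**Figure D2:**
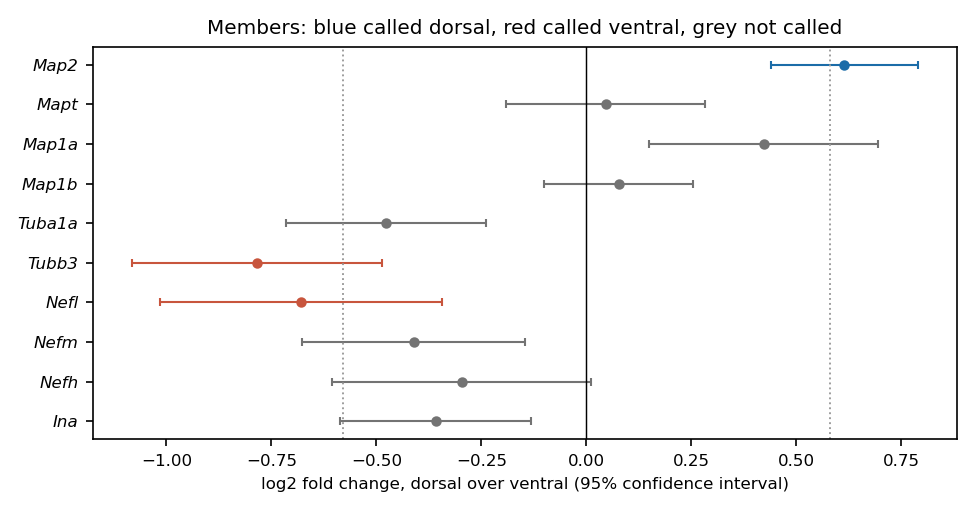
Log2 fold change of dorsal over ventral for each of the 10 genes, with its 95% confidence interval from edgeR (horizontal axis). Dotted lines mark 0.58 in either direction, and colour marks the called genes, Map2 at 0.61, Tubb3 at -0.78 and Nefl at -0.68.

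Map2 (ENSMUSG00000015222, chromosome 1 from 66175273 to 66442583 of GRCm38, plus strand) had levels of 1171, 1196, 1112, 1109 and 1150.2 CPM in the dorsal libraries, replicates 1 to 5 in order, and of 774, 742, 852, 687 and 695 CPM in the ventral ones. The highest ventral library lay well below the lowest dorsal one, and the groups did not overlap. The means were 1148 ± 37.5 against 750.2 ± 67.3 CPM, with a log2 fold change of 0.61 (SE 0.082, 95% confidence interval 0.44 to 0.79, edgeR adjusted p = 0.000179). The value lies close to the fold threshold, and with the GC content taken over all exons in the offsets it was 0.56 (edgeR adjusted p = 0.000142), no longer a call.

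Map1a (ENSMUSG00000027254, chromosome 2 from 121289600 to 121310832, plus strand), which binds microtubules in mature neurons, had 326, 450.0, 497, 447 and 443 CPM in the dorsal libraries and 354, 281, 259.9, 359.8 and 358 CPM in the ventral ones, in order of replicate. Dorsal replicate 1 fell among the ventral libraries, and the other dorsal libraries lay above all of them. The log2 fold change of 0.42 (SE 0.13, edgeR adjusted p = 0.0212) passed the test and not the fold threshold, which it did pass with the GC and length offsets (log2 fold change 0.74, edgeR adjusted p = 0.000372). Ppip5k1 on the opposite strand overlaps 2.24% of the exons of Map1a.

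Mapt (ENSMUSG00000018411, chromosome 11 from 104231390 to 104332090, plus strand), the gene of tau, ranged from 303 to 395 CPM in dorsal and from 298 to 416 CPM in ventral libraries. Map1b (ENSMUSG00000052727, chromosome 13 from 99421446 to 99516540, minus strand), which is known as the form prominent in growing neurites, ranged from 2262 to 2713 CPM and from 1992 to 2468 CPM. The groups overlapped for both genes, and for Map1b 2 dorsal libraries lay above every ventral one. The log2 fold change was 0.046 for Mapt (95% confidence interval -0.19 to 0.28, edgeR adjusted p = 0.778) and 0.077 for Map1b (-0.10 to 0.25, edgeR adjusted p = 0.499), and neither interval reaches the fold threshold. Mapt reached 0.36 (edgeR adjusted p = 0.0324) with the GC content of all exons in the offsets.

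Ratios of 2 genes within a library need no scaling between libraries, and they asked whether Map2 differed from its relatives. A set of 17 ratios was compared on the group means by exact permutation, 2-sided, with Benjamini-Hochberg adjustment over the 17. For each read pair on Mapt there were 2.81 to 3.95 on Map2 in dorsal and 1.86 to 2.46 in ventral libraries, a log2 difference of 0.57 (exact p = 0.00794, adjusted p = 0.0337). The ratio of Map2 to Map1b was 0.432 to 0.502 in dorsal and 0.283 to 0.373 in ventral libraries, a log2 difference of 0.54 (exact p = 0.00794, adjusted p = 0.0337). Neither ratio overlapped between the regions. The difference in Map2 was therefore larger than that in Mapt or Map1b of the same libraries, whereas for Map2 against Map1a the ratios of 2.24 to 3.59 and 1.91 to 3.28 overlapped (log2 difference 0.19, exact p = 0.302, adjusted p = 0.427). After the GC and length offsets the difference for Map2 against Mapt was 0.32 (exact permutation test, adjusted p = 0.0613), and that against Map1b was 0.54 (exact permutation test, adjusted p = 0.0193).

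**Figure D3:**
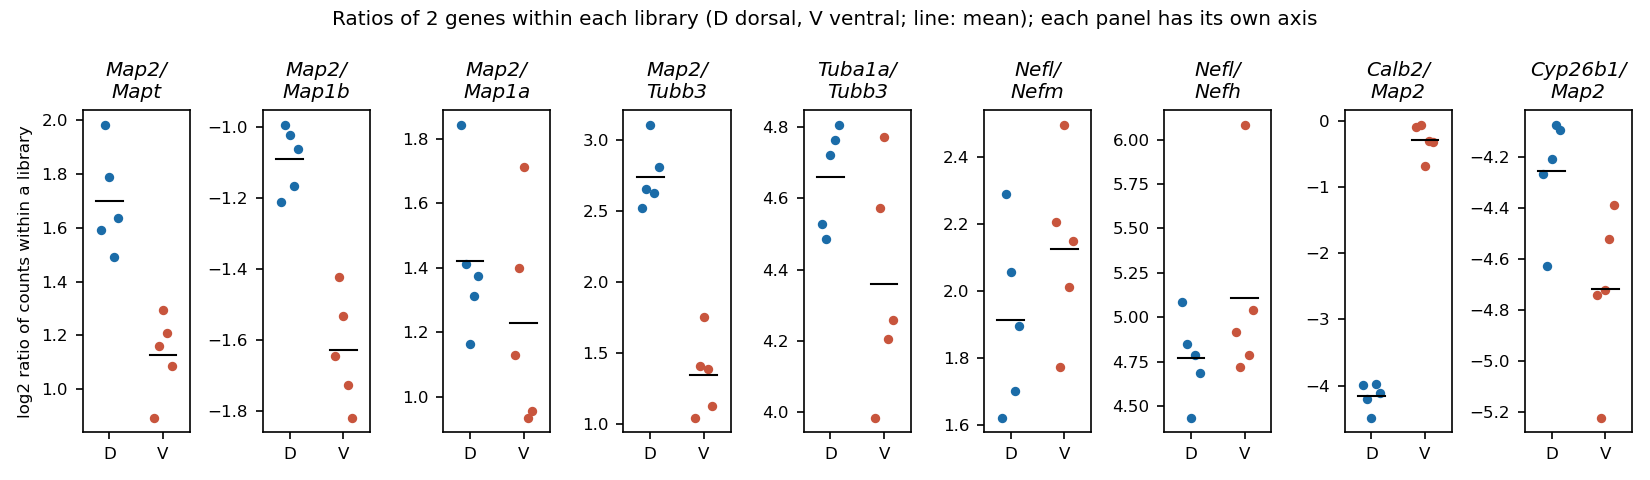
Log2 ratio of the counts of 2 genes within each library (vertical axis, a separate scale in each panel) for dorsal (D, blue) and ventral (V, red) libraries, with a line at the mean. The groups do not overlap for Map2/Mapt, Map2/Map1b, Map2/Tubb3 and Calb2/Map2, and they overlap in the other panels.

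Both tubulin members were lower in dorsal libraries. Tubb3 (ENSMUSG00000062380, chromosome 8 from 123411424 to 123422015, plus strand), the beta-tubulin used as a marker of neurons, measured 204, 190.4, 129, 179.7 and 164 CPM in the dorsal libraries and 376, 280.1, 253, 263 and 318 CPM in the ventral ones, in order of replicate. Every ventral library exceeded every dorsal one. Its log2 fold change was -0.78 (SE 0.14, 95% confidence interval -1.08 to -0.49, edgeR adjusted p = 0.00112), a ventral-enriched call, which with the GC and length offsets was lost (log2 fold change -0.51, edgeR adjusted p = 0.0573). The Tubb3 transcript has 57.9% G and C.

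Tuba1a (ENSMUSG00000072235, chromosome 15 from 98949837 to 98953703, minus strand), the chief alpha-tubulin of neurons, had 4713, 4264.5, 3409, 4885 and 4600.5 CPM in the dorsal libraries and 5950.1, 6659.9, 6914, 4850.2 and 6088 CPM in the ventral ones, in order of replicate. The groups met only between dorsal replicate 4 and ventral replicate 4. The log2 fold change of -0.48 (SE 0.11, edgeR adjusted p = 0.00567) passed the test and not the fold threshold. Gm49450 on the same strand shares 26.2% of its exonic length. Of all 50-base stretches of Tuba1a transcripts, the length of 1 read, 75.5% were also found in transcripts of another gene (Tuba1b, Tuba1c and pseudogenes among them), against 0.166% for Map2 and 0 for Mapt, Map1b, Tubb3 and Nefh, so that its count is uncertain. Over 1356 coding bases of the GENCODE M21 annotation, Tuba1a and Tuba1b were 98.3% identical. The ratio of Tuba1a to Tubb3 was 22.4 to 28.0 in dorsal and 15.8 to 27.3 in ventral libraries and did not differ beyond their spread (log2 difference 0.30, exact p = 0.119, adjusted p = 0.253). The ratio of Map2 to Tubb3 was 5.73 to 8.61 in dorsal and 2.06 to 3.37 in ventral libraries, a 2.64-fold difference with no overlap (exact p = 0.00794, adjusted p = 0.0337).

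All 4 neurofilament genes had negative log2 fold changes, where 8464 of the 16806 genes tested did, and 1 of the 4, Nefl, was called. Nefl (ENSMUSG00000022055, chromosome 14 from 68083863 to 68089095, plus strand) measured 826, 874, 789, 788 and 827 CPM in the dorsal libraries and 1233, 928, 1985, 1108 and 1318 CPM in the ventral ones, in order of replicate. The dorsal libraries lay close together and all below the ventral ones, among which replicate 3 stood far above the rest. The log2 fold change of -0.68 (SE 0.16, edgeR adjusted p = 0.0054) became -0.49 without ventral replicate 3 (edgeR adjusted p = 0.00365), which passes the test and not the fold threshold. Among the ventral libraries that replicate also had the highest share of read pairs outside genes (19.3%) and of mitochondrial mRNA (0.121%) and the highest sums of oligodendrocyte and astrocyte markers (1748 and 1457 CPM), whose part in its Nefl value was not tested.

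Nefm (ENSMUSG00000022054, chromosome 14 from 68082590 to 68124846, minus strand) had 268, 179, 189.7, 242 and 222 CPM in the dorsal libraries and 267, 271, 352, 274 and 297 CPM in the ventral ones, in order of replicate. Dorsal replicate 1 lay just above the lowest ventral library, and the other dorsal libraries lay below all ventral ones. The log2 fold change was -0.41 (SE 0.12, edgeR adjusted p = 0.0214), and with the GC and length offsets it was 0.013 (edgeR adjusted p = 0.966). Nefl and Nefm overlap by 1108 bp of exon on opposite strands, which is 32.8% of Nefl and 19.2% of Nefm, so that without a stated strand setting reads of the shared stretch cannot be assigned to either.

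Ina (ENSMUSG00000034336, chromosome 19 from 47014698 to 47025327, plus strand) had 149, 142, 163, 145 and 141 CPM in the dorsal libraries and 206, 171, 156, 206 and 207 CPM in the ventral ones, in order of replicate. Only dorsal replicate 3 exceeded the lowest ventral library. Its log2 fold change was -0.36 (SE 0.11, edgeR adjusted p = 0.0192), without a call, and -0.11 (edgeR adjusted p = 0.38) with the GC and length offsets, and 14.1% of its exonic length overlaps Nt5c2 on the opposite strand. Nefh (ENSMUSG00000020396, chromosome 11 from 4938754 to 4948064, minus strand) ranged from 24.3 to 36.5 CPM in dorsal and from 29.3 to 40.8 CPM in ventral libraries, with a log2 fold change of -0.30 (95% confidence interval -0.60 to 0.012, edgeR adjusted p = 0.125) and 0.040 with those offsets. The 6 ratios among the 4 genes did not pass the test, but with the GC and length offsets 3 of them did (exact permutation test, adjusted p = 0.0193 each): Nefl to Nefh at a log2 difference of -0.68, Nefl to Ina at -0.52 and Nefh to Ina at 0.16. That of Nefl to Nefm was 3.08 to 4.89 in dorsal and 3.42 to 5.64 in ventral libraries (log2 difference -0.21, exact p = 0.238, adjusted p = 0.417). That of Nefl to Nefh was 21.6 to 34 and 26.4 to 67.7 (log2 difference -0.34, exact p = 0.27, adjusted p = 0.417), with the highest value in ventral replicate 3, without which the log2 difference was -0.097, and that of Nefl to Ina went from -0.28 to -0.057.

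The other genes of the microtubule system were read from 11 lists, each described by its counts and its median beside the -0.0044 of all genes tested. Of all genes tested, 15.7% were called dorsal-enriched and 9.85% ventral-enriched, and 14.6% were lower in dorsal libraries on the adjusted p alone. Of the 13549 protein-coding genes among them, 1540 were called dorsal-enriched and 1397 ventral-enriched. Every dorsal library lay above every ventral one for 9.81% of all genes tested and below for 8.36%. The genes named are the called ones with the largest fold change, so separated groups are partly built into that choice. Among the other alpha- and beta-tubulins, 10 of 14 passed the filter, 5 were called, all of them ventral-enriched, and 7 were lower in dorsal libraries on the adjusted p alone, with a median log2 fold change of -0.59. Tuba8, a minor alpha-tubulin, was 6.15 ± 2.27 against 14.8 ± 4.41 CPM (log2 fold change -1.19, edgeR adjusted p = 0.00466). Tubb4b, a beta-tubulin of many tissues, was 40.6 ± 5.96 against 91.0 ± 9.17 CPM (log2 fold change -1.16, edgeR adjusted p = 4.39e-05), and Tuba1b, the close copy of Tuba1a, 196 ± 6.38 against 328 ± 24.0 CPM (log2 fold change -0.74, edgeR adjusted p = 7.04e-05). For these 3 genes every ventral library exceeded every dorsal one. The reads of Tuba1b are uncertain in the same way as those of Tuba1a, and its call was lost with the GC and length offsets, under which 3 tubulins of the list were called.

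**Figure D4:**
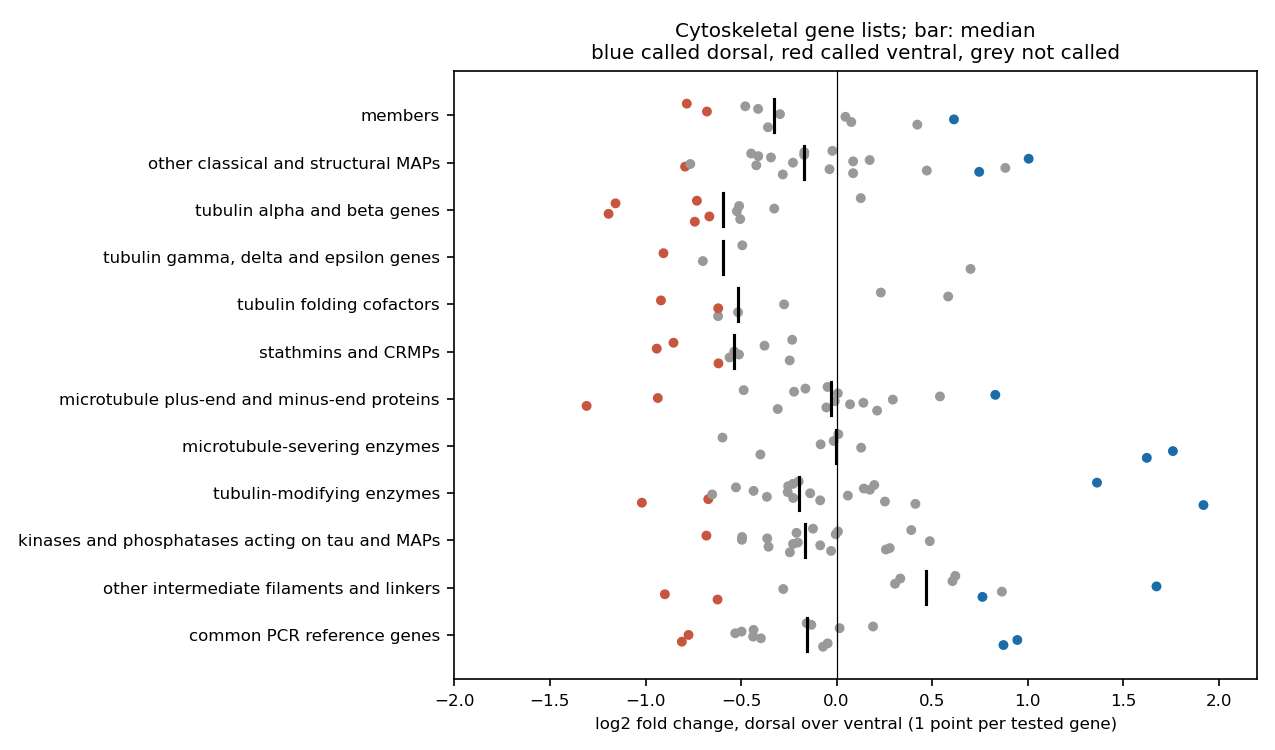
Log2 fold change of dorsal over ventral (horizontal axis) for each tested gene of the members and of 11 gene lists, with a black bar at the list's median. The bars of the tubulins and of the stathmins and CRMPs lie at -0.59 and -0.54, and Map7d3 lies outside the axis.

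Tubulins are folded by dedicated cofactors before they pair. Of 7 genes for these cofactors 2 were called, both ventral-enriched (median -0.52). Tbcd was 8.60 ± 3.12 against 16.6 ± 3.71 CPM (log2 fold change -0.92, edgeR adjusted p = 0.0117), and Tbcb was 47.3 ± 5.84 against 73.0 ± 8.53 CPM (log2 fold change -0.62, edgeR adjusted p = 0.00262). Of the 4 genes for gamma-, delta- and epsilon-tubulin, which serve nucleation and centrioles, Tubg1 was called ventral-enriched at 12.4 ± 1.0 against 23.4 ± 4.45 CPM (log2 fold change -0.91, edgeR adjusted p = 0.00158). With the GC and length offsets Tbcb was not called, and Tbcd and Tubg1 were. Without dorsal replicate 1 or ventral replicate 4 Tbcb was under the fold threshold, at -0.56 and -0.58.

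Stathmins sequester free tubulin and CRMPs bind tubulin in growing axons. All 9 genes of this list had negative log2 fold changes, with 3 called ventral-enriched, 6 past the adjusted p and a median of -0.54. Of the 16806 genes tested 8464 had a negative value, and 14.6% were lower in dorsal libraries on the adjusted p. Stmn1 measured 129 ± 7.62 against 248 ± 9.90 CPM (log2 fold change -0.94, edgeR adjusted p = 1.49e-05), and Stmn3 223 ± 19.9 against 403 ± 66.7 CPM (log2 fold change -0.85, edgeR adjusted p = 0.000228). Crmp1 was 86.0 ± 14.7 against 133 ± 10.5 CPM (log2 fold change -0.62, edgeR adjusted p = 0.00259). The groups did not overlap for any of these 3. With the GC and length offsets 1 of the list was called, Stmn1, and the median was -0.24. Crmp1 was under the fold threshold, at -0.52, without dorsal replicate 1.

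Of 20 other microtubule-associated proteins 2 were called dorsal-enriched and 2 ventral-enriched (median -0.17), where 15.7% and 9.85% of all genes tested were. Map7, which recruits kinesin to microtubules, was 63.5 ± 5.49 against 32.1 ± 5.64 CPM with no overlap (log2 fold change 1.01, edgeR adjusted p = 0.000184). Dclk3, a doublecortin-like kinase, was 13.9 ± 2.56 against 8.44 ± 3.19 CPM (log2 fold change 0.75, edgeR adjusted p = 0.0308). Map1lc3a, a light chain partner of Map1a and Map1b better known from autophagy, was 69.4 ± 17.6 against 121 ± 13.6 CPM (log2 fold change -0.79, edgeR adjusted p = 0.00281). Map7d3 was called ventral-enriched on 0 to 0.0681 CPM in the dorsal and 0 to 7.35 CPM in the ventral group, and no fold is given, as the dorsal libraries lie under the floor. Dclk3 was not called without dorsal replicate 2 or 3 or ventral replicate 3, 4 or 5 (edgeR adjusted p = 0.0543 to 0.0898), nor Map7d3 without any 1 dorsal library or ventral replicate 4 or 5 (edgeR adjusted p = 0.052 to 0.0765).

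Proteins that sit on microtubule ends or cross-link them had 1 of 16 called dorsal-enriched and 2 ventral-enriched (median -0.029). Macf1, a giant linker of actin and microtubules, was 296 ± 22.7 against 166 ± 14.7 CPM (log2 fold change 0.83, edgeR adjusted p = 6.85e-05), with no overlap. Camsap3, a minus-end binder, was 3.24 ± 1.37 against 7.95 ± 2.27 CPM (log2 fold change -1.31, edgeR adjusted p = 0.00637), and Clip2, a plus-end protein, 11.6 ± 3.22 against 22.8 ± 5.49 CPM (log2 fold change -0.94, edgeR adjusted p = 0.00589). Among 8 severing enzymes 2 were called, both dorsal-enriched (median -0.0031), where 15.7% of all genes tested were. Fign, encoding fidgetin, was 18.2 ± 4.42 against 6.34 ± 2.71 CPM with no overlap (log2 fold change 1.62, edgeR adjusted p = 0.00079), and its relative Fignl2 was near the floor at 0.837 ± 0.252 against 0.212 ± 0.168 CPM (log2 fold change 1.76, edgeR adjusted p = 0.0237), with no call without ventral replicate 2 or 4.

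Enzymes that modify tubulin after translation had 2 of 21 tested called in each direction (median -0.20). Over all genes tested the shares were 15.7% dorsal-enriched and 9.85% ventral-enriched. Agbl2 and Agbl4 belong to the carboxypeptidases that trim glutamates from tubulin tails. Agbl2 was 4.24 ± 2.11 against 1.19 ± 1.51 CPM (log2 fold change 1.92, edgeR adjusted p = 0.0238), and Agbl4 was 11 ± 2.89 against 21.4 ± 11.5 CPM (log2 fold change -1.02, edgeR adjusted p = 0.0257). Vash1, a tubulin carboxypeptidase that removes the last tyrosine, was 2.94 ± 1.47 against 1.22 ± 0.546 CPM (log2 fold change 1.36, edgeR adjusted p = 0.0296). Atat1, the alpha-tubulin acetyltransferase, was 36.5 ± 1.37 against 58.1 ± 7.53 CPM (log2 fold change -0.67, edgeR adjusted p = 0.00125) and was the only one of these 4 whose groups did not overlap. Of 18 kinases and phosphatases acting on tau and other microtubule-associated proteins 1 was called, ventral-enriched (list median -0.16): Ppp2r1a, the scaffold subunit of protein phosphatase 2A, at 152 ± 5.93 against 244 ± 36.9 CPM (log2 fold change -0.68, edgeR adjusted p = 0.000659). With the GC and length offsets neither Atat1 nor Ppp2r1a was called, nor were Map1lc3a and Clip2 above. Agbl2 was not called without dorsal replicate 3 or 5 or ventral replicate 1 or 4 (edgeR adjusted p = 0.054 to 0.0643), Vash1 without dorsal replicate 3, 4 or 5 or ventral replicate 1, 3 or 5 (0.0539 to 0.0871), and Agbl4 without dorsal replicate 2, 3 or 5 or ventral replicate 1 (0.0522 to 0.0563), the last of which lowered its log2 fold change to -0.62.

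Intermediate filaments other than neurofilaments had a positive median log2 fold change, 0.47 over 10 tested genes and 2 of them called in each direction. The called dorsal-enriched genes belong to glia and progenitors: Gfap, the filament of astrocytes, was 30.5 ± 8.90 against 18.2 ± 2.0 CPM (log2 fold change 0.76, edgeR adjusted p = 0.00975), and Nes, encoding nestin, was 3.09 ± 1.75 against 1.01 ± 0.893 CPM (log2 fold change 1.67, edgeR adjusted p = 0.0253). The sum over astrocyte markers, Gfap among them, was 1979.6 to 2249 CPM in the dorsal and 857 to 1457 CPM in the ventral group, and its part in these values was not tested. Lmna, a lamin of the nuclear envelope, was 4.10 ± 1.92 against 7.97 ± 0.896 CPM (log2 fold change -0.90, edgeR adjusted p = 0.0244). Without dorsal replicate 3 no gene of the list was called by edgeR, Gfap then having 0.62. Nes was not called without dorsal replicate 3 or 5 or ventral replicate 1, 4 or 5 (edgeR adjusted p = 0.0549 to 0.0737), nor Lmna without dorsal replicate 3, 4 or 5 or ventral replicate 4 or 5 (0.0517 to 0.0649).

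Map2 was next set beside genes in common use as PCR references, 15 of which were tested (Rn18s was not matched). They had a median log2 fold change of -0.16, with 2 called in each direction, where 15.7% and 9.85% of all genes tested were. Map2 at 0.61 lay above all of them but Gusb and B2m. Gusb, a lysosomal glucuronidase, was 9.44 ± 2.53 against 4.72 ± 1.40 CPM (log2 fold change 0.95, edgeR adjusted p = 0.0153), and B2m, the light chain of class I histocompatibility molecules, was 63.2 ± 14.4 against 33.6 ± 12.1 CPM (log2 fold change 0.87, edgeR adjusted p = 0.00835). The glycolytic genes Gapdh, at 235 ± 43.1 against 412 ± 70.9 CPM (log2 fold change -0.81, edgeR adjusted p = 0.00131), and Pgk1, at 37.6 ± 9.46 against 63.2 ± 6.93 CPM (log2 fold change -0.77, edgeR adjusted p = 0.00232), were called ventral-enriched. B2m was not called with the GC and length offsets (log2 fold change 0.63, edgeR adjusted p = 0.0604) or with the GC content of all exons in them (0.64, edgeR adjusted p = 0.0544), and Gapdh, at -0.53, was under the fold threshold with the latter. Ppia (-0.53), Hprt (-0.44) and Sdha (-0.43) passed the adjusted p and not the fold threshold, at edgeR adjusted p = 0.0185, 0.0215 and 0.00302, and Ppia was called ventral-enriched without dorsal replicate 1 (-0.65) or ventral replicate 3 (-0.64). Hprt was called ventral-enriched with the GC and length offsets (log2 fold change -0.85, edgeR adjusted p = 0.00124). The log2 fold changes of Rpl13a (-0.50), Ywhaz (-0.16), Actb (-0.071), Eef1a1 (-0.047), Tbp (0.016) and Tfrc (0.19) did not pass the test, and the sign turned with the GC and length offsets for Tbp and Tfrc and without ventral replicate 5 for Eef1a1.

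**Figure D5:**
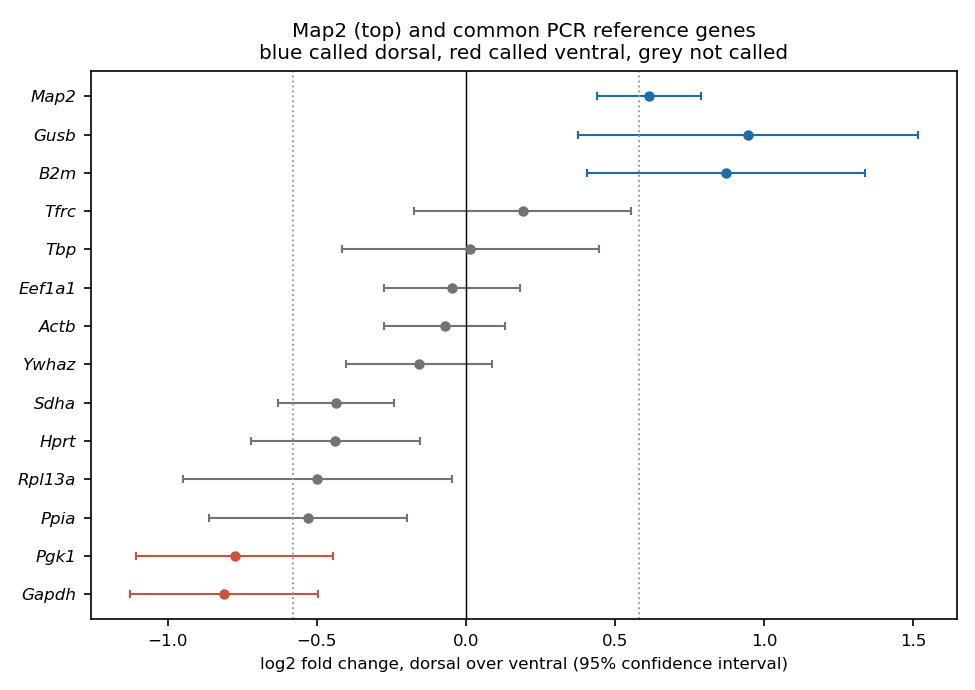
Log2 fold change of dorsal over ventral with its 95% confidence interval from edgeR (horizontal axis) for Map2, at the top, and for 13 genes used as PCR references. Dotted lines mark 0.58 in either direction, and the intervals of Tbp, Eef1a1, Actb, Ywhaz and Tfrc include 0 while that of Map2 does not.

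The study's PCR measured Calb2 (calretinin) and Cyp26b1 (a retinoic acid hydroxylase) relative to Map2, and ratios of the same genes can be formed from the counts. That PCR compared ribosome-bound with unbound RNA, whereas the counts come from bound RNA alone, so they are not the same measure. Per count of Map2 there were 0.0447 to 0.0636 counts of Calb2 in dorsal and 0.621 to 0.959 in ventral libraries, a 14.5-fold higher ratio in ventral libraries with no overlap (log2 difference -3.86, exact p = 0.00794, adjusted p = 0.0337). Scaled between libraries by TMM instead, Calb2 had a log2 fold change of -3.24 (SE 0.14, edgeR adjusted p = 1.06e-08). For Cyp26b1 the ratio to Map2 was 0.0405 to 0.0594 in dorsal and 0.0268 to 0.0478 in ventral libraries, which overlapped (log2 difference 0.46, exact p = 0.0238, adjusted p = 0.081). After the GC and length offsets the log2 difference was 0.85 (exact permutation test, adjusted p = 0.0193). Scaled by TMM, the log2 fold change of Cyp26b1 was 1.05 (SE 0.15, edgeR adjusted p = 0.00025). Relative to Map2, Calb2 was thus further toward ventral and Cyp26b1 less far toward dorsal than by TMM, each by about the log2 fold change of Map2 itself. That shift follows from how the ratio is formed and would hold for any gene.

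The genes whose levels followed Map2 most closely over the 10 libraries, among 8761 genes with a mean of at least 10 CPM, were Gria2, Chd9, Nptx1, AI593442 and Lrrtm2, with Pearson correlations of log2(CPM + 1) of 0.992, 0.989, 0.988, 0.986 and 0.984. This likeness is a description, since all points share the dorsal and ventral groups and the library scaling. Gria2, an AMPA receptor subunit, was 1143 ± 98.0 against 650.7 ± 73 CPM (log2 fold change 0.81), but with the GC and length offsets its log2 fold change was -0.14. Lrrtm2, a synaptic adhesion protein, at 0.55, likewise fell below 0 with them. Nptx1, a neuronal pentraxin, and AI593442, at 0.67 and 0.83, were called in all 28 alternatives, and Chd9, a chromatin remodeller, at 0.58, lay at the fold threshold.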

How the data were processed

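Hippocampal TRAP RNA was amplified with the Ovation kit, made into TruSeq libraries and sequenced as 50 bp paired ends. The authors aligned the reads to GRCm38 with STAR 2.5.2b and assigned them to Ensembl genes with HTSeq 0.7.2, as the submitters' processing notes list, and the deposited values are whole-number counts, neither normalized nor filtered. The annotation release and the strand setting are not given in the sources used here. Groups and replicate numbers came from the sample titles.

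The test was edgeR 4.0.16 under R 4.3.3. A gene entered it with CPM above 1 in 2 or more libraries, TMM gave the scaling between libraries, and dorsal was compared with ventral by the quasi-likelihood test with Benjamini-Hochberg adjustment over all 16806 genes. A call needed an adjusted p under 0.05 and a difference of the group means, each plus 1 CPM, above 0.58 on the log2 scale. P-values measure the spread between pools of 5 mice. Gene names, exonic length and GC content came from GENCODE M21, which matched 54809 of 54838 identifiers. Ratios within a library were tested by 2-sided exact permutation in Python 3.11.15 with NumPy 2.4.6. DESeq2 1.42.0, limma 3.58.1 and mgcv 1.9.3 (smooth GC and length trends, entered as offsets) served the alternatives, which also changed the scaling, the filter and the thresholds, added a replicate block and left out each library in turn. Offsets with the GC content of all exons, the dispersions of edgeR 3 and counts without members that share exons were added after the data were seen.

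The members, the lists and the tests were chosen with earlier results of these data known. Named are all members, Calb2 and Cyp26b1 as the PCR targets, up to 3 called genes per direction and list with the largest log2 fold change, the reference genes, and the 5 genes most like Map2. The other genes named are cell type markers and genes that overlap a member. No pair of libraries was a duplicate (chi-square per degree of freedom 4.36 to 45.1). Data from PCR and imaging were not used here, and a few listed genes are counted but not reported singly.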

Additional observations from a re-analysis of the deposited data

Results flagged for a closer look

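Of 60 sets of 5 values checked, 4 held 1 library far from the others, and chance flags about 1 in 20 such sets. All 4 were ratios of a neurofilament gene to another gene in ventral replicate 3. They are not separate flags, as the Nefl count enters Nefl/Nefh, Nefl/Ina and Nefl/Tubb3, and the Nefh count enters Nefl/Nefh and Nefm/Nefh. Its ratio of Nefl to Nefh was 67.7, where the other ventral libraries had 26.4 to 32.9. Its ratio of Nefl to Ina was 12.7, against 5.37 to 6.36. The ratio of Nefm to Nefh was 12 in it, against 6.56 to 7.73. The ratio of Nefl to Tubb3 was 7.84 in it, against 3.28 to 4.21. In the same library Nefm, at 352 CPM, was also the highest of the ventral libraries, while Nefh and Ina, at 29.3 and 156 CPM, were the lowest.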

How the results depend on the processing

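The calls of Map2, Tubb3 and Nefl held in 27, 25 and 27 of 28 alternatives, and no member changed sign under another scaling, filter or test. Some weaker list calls were lost under another test. Agbl2 was not called by DESeq2, the edgeR likelihood-ratio test or the edgeR 3 dispersions (adjusted p = 0.0561, 0.0663 and 0.104). Limma-voom did not call Vash1 or Map7d3 (adjusted p = 0.0781 and 0.178), and neither it nor DESeq2 called Fignl2 (0.0583 and 0.0604). With the edgeR 3 dispersions Vash1, Fignl2, Dclk3 and Nes were not called (edgeR adjusted p = 0.0535 to 0.0819). Offsets for GC content and length moved most values. With them 2 members were called dorsal-enriched and 1 ventral-enriched (2 and 1 with the replicate block added, 1 ventral-enriched with the GC content of all exons), and 13 listed pathway genes ventral-enriched (13 with the block, 12 with the GC content of all exons) in place of 22. The log2 fold change of Nefm became 0.013 and that of Nefh 0.040 (0.055 with the block, 0.050 with the GC content of all exons). In the same order the values were -0.098, -0.079 and -0.029 for Tbp, -0.12, -0.12 and -0.24 for Tfrc, and -0.0036, -0.0052 and -0.12 for Lrrtm2, and Gria2 had -0.14 in the first and second. With these offsets 8 ratios in place of 4 passed, Map1a/Map1b (0.67), Nefl/Nefh, Nefl/Ina, Nefh/Ina and Cyp26b1/Map2 added and Map2/Mapt lost, and the log2 differences of Map2/Map1a, Mapt/Map1b, Nefm/Ina and Nefl/Tubb3 were -0.13, 0.21, 0.093 and -0.096. On medians 0 ratios passed, not even Calb2/Map2 at a log2 difference of -3.81 with no overlap (exact permutation test, adjusted p = 0.162). With 5 libraries per group the test on medians is thus too coarse to decide, and the 0 is not read as a loss. The log2 differences on medians were 0.48 for Map2/Mapt, 0.58 for Map2/Map1b and 1.27 for Map2/Tubb3. Those of Mapt/Map1b and Nefm/Ina turned sign, at 0.026 and 0.14. Without a fold threshold 2 members were called dorsal-enriched and 5 ventral-enriched, and 40 listed genes ventral-enriched. Genes called fell to 1180 and 899 with CPM above 5 in at least 5 libraries and to 1498 and 897 at an adjusted p below 0.01, and dorsal-enriched genes to 1665 with protein-coding genes alone in the fit. Listed genes called dorsal-enriched, 11 in all, were 5 at an adjusted p below 0.01, 6 with the dispersions of edgeR 3, and 5 to 14 with a library left out, the fewest without dorsal replicate 3 and 7 without ventral replicate 4. Members called ventral-enriched were 1 to 2 with a library left out, 1 without ventral replicate 3, and 1 with Nefl, Nefm, Tuba1a and Ina left aside for shared exons. Leaving out a library turned Tbp (-0.12 to 0.21), Eef1a1 (-0.11 to 0.039, positive without ventral replicate 5), Mapt/Map1b (-0.075 to 0.024), Nefm/Ina (-0.14 to 0.065) and Nefm/Nefh (-0.28 to 0.024, positive without ventral replicate 3). The causes were not tested. Same-numbered libraries did not deviate together (correlations -0.0317 to 0.0695), and were treated as unpaired. Which pools share mice is not given, so these correlations cannot show that the 2 groups are independent. A block by replicate number gave 2656 and 1674 called genes, 2496 and 1533 of them also called without it, and left every member's call as it was. With no expression filter the median log2 fold change of all genes was 0.11. Depth limits genes at a few CPM or less in a group, Fignl2, Map7d3, Vash1, Agbl2, Nes and Camsap3 among them.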

Other observations

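The remaining marker lists gave these values, to be read beside the 15.7% of all genes tested called dorsal-enriched and the 9.85% called ventral-enriched. Of the mossy cell markers 6 of 7 were tested, with 1 called dorsal-enriched (Cyp26b1) and 2 ventral-enriched (Calb2 and Satb1), and their sum was 401 to 498 CPM in the dorsal and 1035 to 1273 CPM in the ventral group. Most of that gap is Calb2, at 65.2 ± 9.32 against 616 ± 94.6 CPM, and the median log2 fold change of the list was -0.31. Markers of granule cells summed to 444 to 568 CPM in the dorsal and 414 to 602 CPM in the ventral group, with 1 of 6 called in each direction. Markers of CA1 and CA3 pyramidal cells summed to 466 to 538 and 447 to 589 CPM, with 1 of 7 called dorsal-enriched and 2 ventral-enriched. Subiculum markers were low, at 14.2 to 29.6 and 11.3 to 15.6 CPM in sum, with 2 of 5 called dorsal-enriched. Precursors of oligodendrocytes (20.5 to 67.9 and 27.6 to 46.6 CPM), microglia (26.6 to 43.3 and 21 to 35.7 CPM) and endothelial cells (9.69 to 43.7 and 9.33 to 52.3 CPM) had 1 of 5, 2 of 8 and 0 of 5 tested markers called by edgeR, those called being dorsal-enriched. All 5 endothelial markers had negative log2 fold changes (median -0.67), where 8464 of the 16806 genes tested did. Of these 5 markers 1 was lower in dorsal libraries and 0 higher at an unadjusted p below 0.05 in edgeR.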
